A study of Mus musculus with 24 samples.

Results

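The genes described here are 10 that code for proteins that astrocytes release or shed and that are known for their effects on synapses: Thbs1, Thbs2, Thbs3 and Thbs4 (the thrombospondins), Sparcl1 (hevin), Sparc, Gpc4, Gpc5 and Gpc6 (glypicans) and Chrdl1 (chordin-like 1). They were taken by name from a table of gene counts, where all 10 of 10 were found among 49671 genes, and all 10 passed the filter on low counts. RNA-seq was done on 24 mouse libraries, 4 in each of 6 groups. NSC are neural stem cells derived from 1 line of C57BL/6N embryonic stem cells and kept in FGF and EGF, and AGES are astrocytes made from those NSC by 3 to 5 days of BMP4 at 20 ng/ml. AdAC direct and neoAC direct are astrocytes sorted with magnetic beads against the surface antigen ACSA-2 from the brains of adult (100 to 140 days old) and neonatal (4 to 8 days old) C57BL/6J mice and frozen at once, while AdAC CellC and neoAC CellC are astrocytes sorted the same way and then kept for 7 to 10 days in a serum-free astrocyte medium. No transgene or deletion is named for any group, and the mice were of both sexes, mixed.

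Some limits of these groups as models come from how they were made. Each primary library is 1 isolation from 2 pooled mice, and each NSC or AGES library is a culture of another passage (passages 50 to 60) of the same line, so that the spread in these 2 groups holds no variation between lines. Adult brains for direct isolation were taken without olfactory bulb and cerebellum, and the paper names this removal for direct isolation only. Neonatal cells came from cerebral tissue freed of meninges. Adult and neonatal brains were dissociated with different kits, and only the adult suspensions had debris and red blood cells removed, so that age, dissection and dissociation cannot be told apart. The primary cells and the NSC and AGES came from different substrains of C57BL/6.

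Astrocytes promote synapses largely through what they secrete. Thrombospondins are trimeric or pentameric matrix proteins that act on neurons through the calcium channel subunit alpha2delta-1 (Cacna2d1) and give synapses that are structurally normal but postsynaptically silent. Hevin binds neuroligin 1 (Nlgn1) at the cleft, and its relative SPARC, which lacks this activity, is known as an antagonist of hevin. Glypicans are heparan sulfate proteoglycans anchored to the membrane by a lipid and released by cleavage. Gpc4 and Gpc6 recruit AMPA-type glutamate receptors to synapses. The presynaptic phosphatase Ptprs and the postsynaptic receptor Gpr158 are known binding partners of Gpc4. Chrdl1, a secreted antagonist of bone morphogenetic proteins (BMPs), is known to drive synapse maturation through the GluA2 subunit of AMPA receptors.

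Library totals lay between 27904126 and 37997368 counts (median 32239904). Correlations of log2 CPM (counts scaled to a fixed total) between libraries were 0.985 to 0.994 within groups and at most 0.928 between them, and no pair of libraries held identical counts. The labelled cell types were checked by the summed CPM of marker lists. The 8 astrocyte markers summed to 54294 to 58947 CPM in AGES, 19481 to 22273 in neoAC direct, 13866 to 14356 in AdAC direct, 6326 to 7393 in neoAC CellC, 1908 to 2427 in NSC and 821 to 1277 in AdAC CellC, and each of the 8 had a mean over 1 CPM in every group. Gfap alone held 50503 ± 1883 CPM (SD, n = 4) of the sum in AGES. Aldh1l1 (15.0 ± 4.34 CPM) and Gja1 (10.3 ± 7.59) were low there, against 1228 ± 174 and 1359 ± 149 in neoAC direct, and neither was called between AGES and NSC. Aldoc and S100b had higher means in AGES (3309 and 271 CPM) than in neoAC direct (1977 and 78.9 CPM). Slc1a3, Slc1a2 and Aqp4 had lower ones (1265, 547 and 245 CPM, against 6722, 5679 and 1752). Against NSC, 5 of the 8 astrocyte markers were called higher in AGES and 0 lower. The 6 neural stem cell markers summed to 6766 to 11793 CPM in AGES, above the 3462 to 3881 CPM of NSC, and to 5213 to 6158 in AdAC CellC, 4054 to 4884 in neoAC CellC, 1634 to 1907 in neoAC direct and 658 to 718 in AdAC direct. Vim alone held 8310 ± 2257 CPM of it in AGES and 1855 ± 282 in NSC, and without Vim the order turned, with 949.5 to 1258 CPM in AGES and 1650 to 2012 in NSC. Nes and Egfr were called lower in AGES than in NSC, and the other 4 higher. The 5 oligodendrocyte markers (Mbp, Mog, Mag, Mobp and Cldn11) summed to 9799 to 10517 CPM in AdAC direct and to 2769 to 7158 CPM in AdAC CellC, where they were above the astrocyte markers, against 6.75 to 91.4 CPM in the other 4 groups. The 6 markers of fibroblasts and meninges summed to 1065 to 1548 CPM in AdAC CellC, 390 to 653 in neoAC CellC, 198 to 327 in neoAC direct, 83.1 to 99.5 in AdAC direct and at most 4.60 in NSC and AGES. The 4 ependymal markers summed to 1337 to 1698 CPM in neoAC CellC and 1156 to 1326 in AdAC direct, against 221 to 311 in AdAC CellC, 132 to 194 in neoAC direct and at most 84.2 in NSC and AGES. The 6 markers of pericytes and smooth muscle summed to 873 to 1032 CPM in AdAC CellC, 449 to 484 in AdAC direct, 310 to 668 in neoAC CellC, 279 to 611 in neoAC direct and at most 8.86 in NSC and AGES. Acta2 alone carried the high sums in culture (813 ± 83.5 CPM in AdAC CellC and 429 ± 152 in neoAC CellC), and the other 5 of the 6 were lower in cultured than in directly isolated cells at both ages. In neoAC direct replicate 2 the 6 endothelial markers summed to 323 CPM, against 79.0 to 125 in the other 3 libraries of its group. The same library was highest of its group in the markers of microglia (54.9 CPM, against 10.8 to 19.4). It was also highest in those of pericytes and smooth muscle (611 CPM, against 279 to 408). These are bulk samples, so that fewer cells of a type and less RNA per cell cannot be told apart in any value below.

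**Figure D1:**
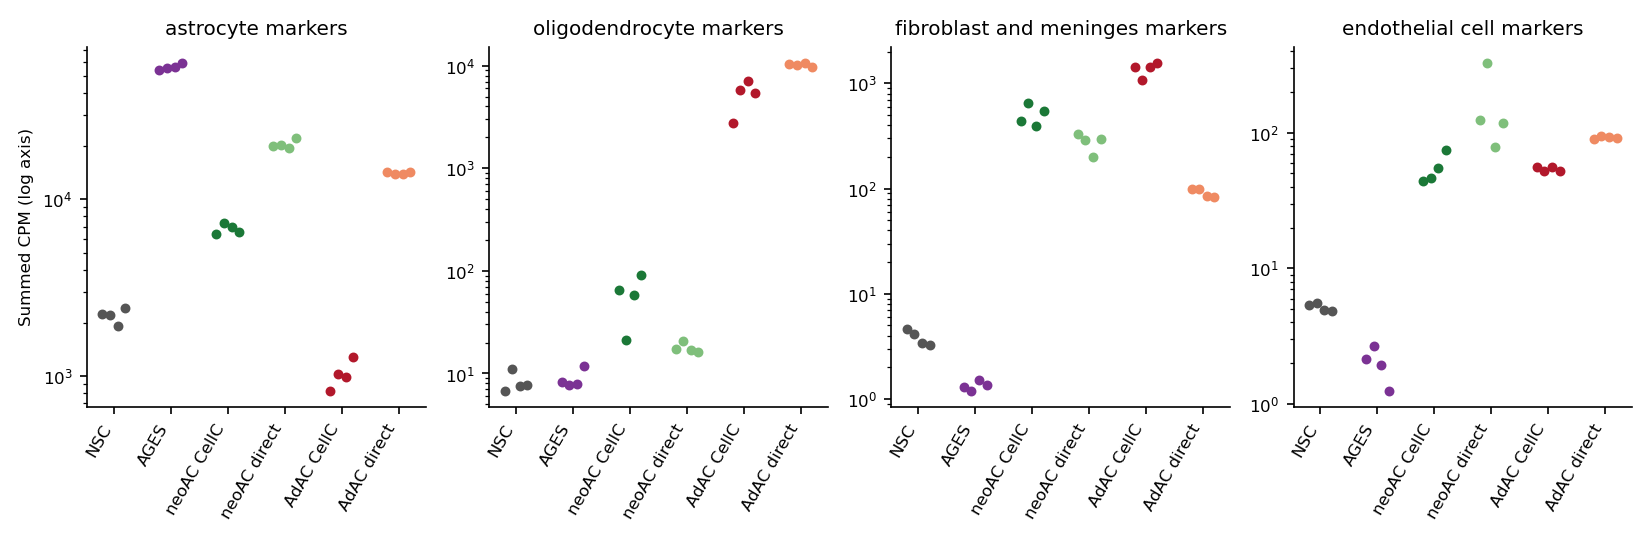
Summed CPM (log axis) of the astrocyte, oligodendrocyte, fibroblast and meninges, and endothelial marker lists in each library, with 4 points per group and 1 panel per list. The oligodendrocyte sum was at least 2769 CPM in all 8 adult astrocyte libraries and at most 91.4 CPM in the other 16, and the astrocyte sum was lowest in AdAC CellC.

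Among the thrombospondins, Thbs1 (GRCm38 chr2:118111876-118127133, plus strand) spanned the widest range. Thbs1 is the member best known as a matrix protein of wounds and as an activator of latent TGF-beta. The 4 AdAC CellC libraries held 3285, 2647, 2408 and 2479 CPM of Thbs1, and the 4 AdAC direct libraries held 5.25, 3.4, 4.34 and 5.25 CPM. The lowest cultured adult library was thus far above the highest directly isolated one, with a log2 fold change of 9.21 ± 0.24 (SE, n = 4 and 4, a 593-fold difference, edgeR adjusted p = 4.30e-20). Neonatal cells moved in the same direction from a higher start: neoAC CellC held 588, 753, 678 and 883 CPM and neoAC direct 68.6, 46.3, 49.6 and 50.8 CPM, a log2 fold change of 3.75 ± 0.19 (adjusted p = 7.44e-15 in the same edgeR fit). The change with culture was larger in adult than in neonatal cells by 5.46 ± 0.26 on the log2 scale (interaction term, edgeR adjusted p = 3.41e-15). AGES held 9.68, 13.8, 14.3 and 8.03 CPM of Thbs1 and NSC 2.25, 2.03, 1.497 and 2.31 CPM. All AGES libraries were above all NSC libraries, by 2.51 ± 0.21 (log2, edgeR adjusted p = 7.83e-11), yet far below the other cultures, with log2 fold changes of -7.88 ± 0.23 against AdAC CellC and -5.98 ± 0.21 against neoAC CellC (adjusted p = 3.58e-20 and 1.40e-18). The order from AdAC CellC through neoAC CellC, neoAC direct, AGES and AdAC direct to NSC had no overlap between neighbouring groups. An exon of the noncoding gene Gm29233 on the opposite strand covers 3.42% of the exon length of Thbs1, and whether reads were counted by strand is not given in the sources used here. Most fibroblast and meninges markers moved with Thbs1 and with the 3 other members that rose in both cultures (Thbs2, Sparc and Gpc4). Of the 6, 5 were higher in cultured than in directly isolated adult cells and 4 in neonatal cells, with the sums given above. Slc6a13 was lower at both ages (-3.52 in adult and -0.63 in neonatal cells, log2, both called with edgeR). Between AGES and NSC, where these 4 members were higher too, 0 of the 6 markers were higher and 1 was lower. The part of these markers in these results was not tested.

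Thbs2 (chr17:14665500-14694235, minus strand), the close relative of Thbs1 with the same domain order, rose in both cultures too, but from a level that did not differ between the ages beyond the spread. AdAC CellC held 67.7, 82.1, 98.4 and 102 CPM against 17.8, 14.6, 15.4 and 21.0 in AdAC direct, and neoAC CellC held 45.7, 31.9, 24.6 and 34.1 CPM against 15.5, 18.2, 11.7 and 15.5 in neoAC direct. The cultured libraries were above the directly isolated ones without overlap at both ages, by 2.35 ± 0.20 and 1.16 ± 0.19 on the log2 scale (edgeR adjusted p = 7.64e-11 and 1.02e-05). Thbs2 was the thrombospondin with the largest log2 fold change between AGES and NSC: AGES held 13.6, 14.4, 16.8 and 9.35 CPM and NSC 1.37, 1.37, 0.701 and 1.20 CPM, a log2 fold change of 3.54 ± 0.25 (edgeR adjusted p = 3.48e-12). AGES overlapped neoAC direct in this gene, and neoAC direct overlapped AdAC direct.

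Thbs3 (chr3:89215180-89226837, plus strand), a member of the pentameric subgroup, was the flattest of the 10 genes. Its group means lay between 25.0 CPM in AdAC direct and 42.8 CPM in neoAC direct, a 1.71-fold range. The 4 AdAC direct libraries held 26.9, 24.1, 25.1 and 23.9 CPM and were below all other 20 libraries. Against this level Thbs3 was higher by 0.46 ± 0.11 in AdAC CellC and by 0.78 ± 0.11 in neoAC direct (log2, edgeR adjusted p = 0.000683 and 1.01e-06). Neighbouring groups overlapped everywhere else in the order. The differences between AGES and NSC (0.21 ± 0.11, edgeR adjusted p = 0.0978) and between neoAC CellC and AdAC CellC (0.17 ± 0.11, adjusted p = 0.194) were not called, but with DESeq2's Wald test they were 0.30 and 0.27 with adjusted p of 0.0207 and 0.0398. Exons of the protein-coding gene Mtx1 on the opposite strand cover 6.59% of the exon length of Thbs3.

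Thbs4 (chr13:92751590-92794818, minus strand), also of the pentameric subgroup, was above the floor of 3 counts per library in the primary cells alone. AdAC direct held 10.2, 8.81, 6.98 and 7.31 CPM and neoAC direct 7.997, 7.34, 6.83 and 9.25 CPM, and these 2 groups overlapped. In culture the level was 1.32, 1.11, 0.930 and 0.869 CPM in AdAC CellC and 1.09, 0.341, 0.915 and 1.03 CPM in neoAC CellC. Thbs4 fell by 2.97 ± 0.27 in adult and by 3.22 ± 0.28 in neonatal cells on the log2 scale (edgeR adjusted p = 2.72e-10 and 1.87e-10). The libraries of NSC and AGES held 0 to 2 counts each, at or under a floor of 3 counts per library, which is 0.0962 CPM in NSC and 0.0997 CPM in AGES. With the counts of a group pooled (3 in AGES), the ratio to AGES was 318 in neoAC direct (exact 95% Poisson interval 108 to 1544, for counting error alone), 42.7 in AdAC CellC (14.3 to 209.6) and 33.6 in neoAC CellC (11.2 to 165). With culture most astrocyte markers moved with Thbs4 and with the 3 other members that fell in both cultures (Sparcl1, Gpc5 and Chrdl1). Of the 8 markers 7 were lower in cultured than in directly isolated adult cells, with Gfap not called. In neonatal cells 6 were lower, Gfap was higher and S100b was not called. Between AGES and NSC 5 of the 8 were higher, as was Sparcl1, while Thbs4, Gpc5 and Chrdl1 were not called. The ependymal markers were lower in cultured adult cells (4 of 4) and higher in cultured neonatal cells (4 of 4). In adult culture 4 of 6 endothelial markers, 4 of 5 of oligodendrocytes and 5 of 6 of pericytes and smooth muscle were lower too, while Acta2 was higher. In neonatal culture Cldn5, Pecam1, Flt1, Tek and all markers of pericytes and smooth muscle but Acta2 were lower, while the oligodendrocyte markers were higher. Their part in these results was not tested.

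Gpc5 (chr14:115092215-116525179, plus strand) is the other member that was highest in directly isolated cells and near 0 in NSC and AGES, and over the 24 libraries its log2 CPM had a Pearson correlation of 0.88 with that of Thbs4. These libraries share their groups, so that the value describes the groups. The 250 bases before the start of each of these 2 genes are printed because both fell in both cultures. They come from RefSeq (GRCm38.p6) and are read on the strand of the gene, chr13:92794819-92795068 for Thbs4 (minus strand) and chr14:115091965-115092214 for Gpc5 (plus strand). Capitals mark matches to the letters GGAATG, the core of sites of TEAD factors, searched on both strands.
Thbs4: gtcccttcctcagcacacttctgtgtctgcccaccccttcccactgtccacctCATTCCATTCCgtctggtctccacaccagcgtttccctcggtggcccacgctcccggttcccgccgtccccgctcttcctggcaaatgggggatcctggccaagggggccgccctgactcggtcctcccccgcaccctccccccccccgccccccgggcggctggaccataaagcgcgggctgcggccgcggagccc
Gpc5: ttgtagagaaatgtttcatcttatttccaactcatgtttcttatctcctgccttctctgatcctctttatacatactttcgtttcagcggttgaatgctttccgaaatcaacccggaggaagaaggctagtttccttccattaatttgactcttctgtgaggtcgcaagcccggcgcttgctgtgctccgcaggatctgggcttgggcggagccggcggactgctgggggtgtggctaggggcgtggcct
The Thbs4 window holds 2 overlapping matches on the reverse strand, 192 and 197 bases before the start, and has a GC content of 70.8%, while the Gpc5 window holds none and has a GC content of 51.2%. Of 27025 such windows in all, 12.6% hold these letters. Windows were found for 6 members (Thbs2, Thbs3, Thbs4, Sparc, Gpc4 and Gpc5). Those of Sparc and Gpc4 lie with 238 and 250 of their 250 bases in Gencode exons of the same gene, so that they are not upstream of its first exon. Of the other 4, the Thbs4 window alone holds GGAATG, and none holds GGCGCC, the core of BMP-responsive SMAD sites, which is in 9.54% of all windows. The Gpc4 window holds both, within its exon. TGANTCA (AP-1 sites, in 6.87% of all windows) and TTCNNNGAA (STAT sites, in 7.18%) are in none of the 6, also on both strands. A match of letters is a description and not a site.

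**Figure D2:**
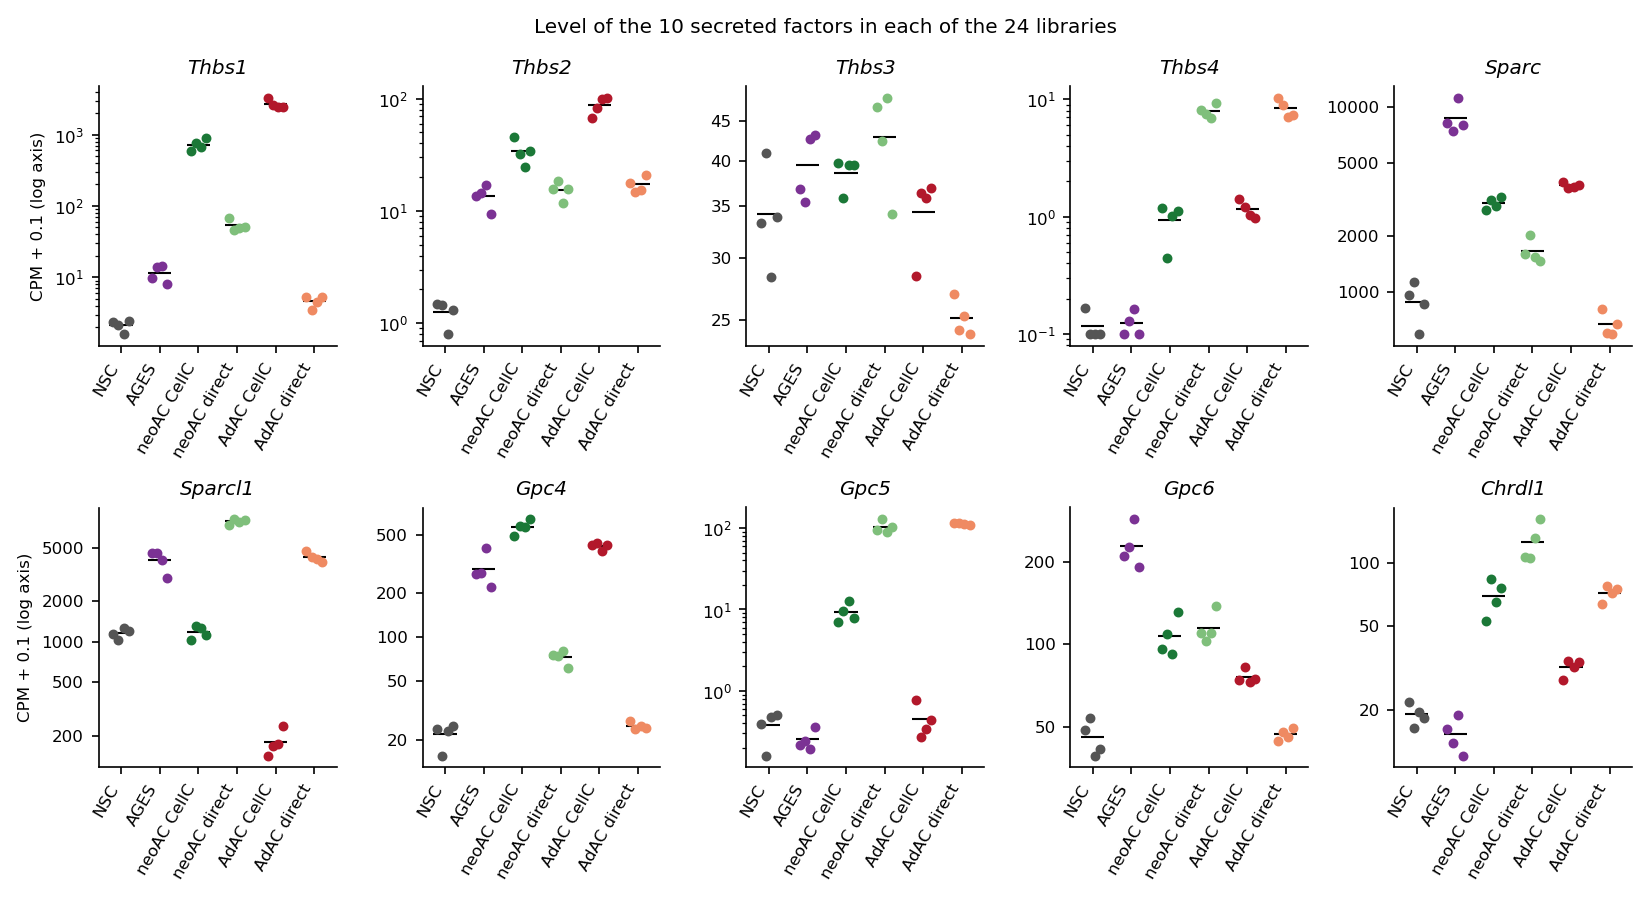
CPM plus 0.1 (log axis, its range set for each panel) of the 10 genes in each of the 24 libraries, with 1 point per library and a line at the mean of the 4 libraries of a group. Thbs1 spans from 1.497 CPM in NSC to 3285 CPM in AdAC CellC, while all libraries of Thbs3 lie between 23.9 and 48.1 CPM.

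Set per length, the thrombospondins changed places between the groups. In CPM per kb of exon, their sum was 465 ± 63.0 in AdAC CellC, 133 ± 20.1 in neoAC CellC, 22.3 ± 2.29 in neoAC direct, 12 ± 1.10 in AGES, 10.9 ± 0.849 in AdAC direct and 7.56 ± 1.14 in NSC (SD, n = 4). Thbs1 made up 95.6% ± 1.11 of this sum in AdAC CellC and 89.9% ± 2.31 in neoAC CellC. In AdAC direct it made up 6.85% ± 1.02, and there Thbs3 had the highest share (47.6% ± 2.66), followed by Thbs4 (23.1% ± 3.11) and Thbs2 (22.5% ± 3.21), whose libraries overlapped. In neoAC direct the shares of Thbs3 and Thbs1 were 39.8% ± 4.73 and 39.5% ± 3.67, again with overlap. Thbs3 also had the highest share in NSC (93.4% ± 1.09) and in AGES (68.3% ± 6.29), where Thbs1 and Thbs2 stood at 15.6% ± 3.55 and 16.03% ± 3.02.

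**Figure D3:**
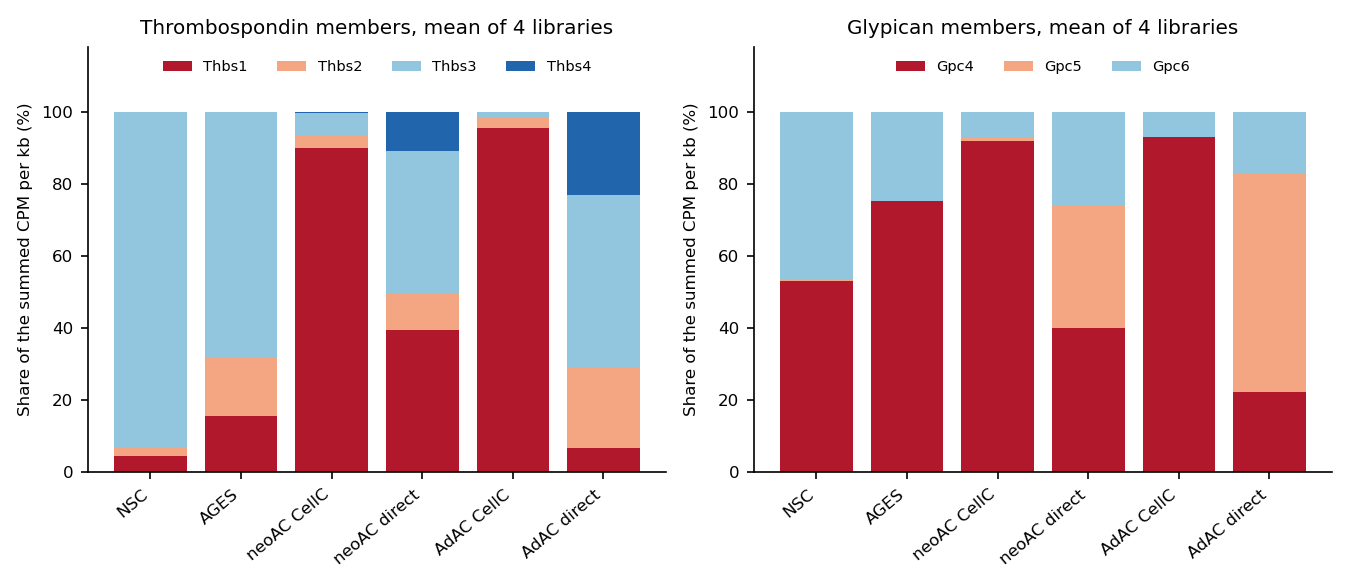
Share (%) of each thrombospondin in the summed CPM per kb of the 4 thrombospondins, and of each glypican in that of the 3 glypicans, as the mean of the 4 libraries of a group. Thbs1 fills 95.6% of the thrombospondin bar and Gpc4 93.0% of the glypican bar in AdAC CellC, against 6.85% and 22.2% in AdAC direct.

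Sparc and Sparcl1 were the 2 most abundant members per length in 5 of the 6 groups, and in AdAC CellC Thbs1 came between them, with Gpc4 also above Sparcl1. They moved in opposite directions in culture. Sparcl1 (chr5:104079111-104113733, minus strand) stood at 7400, 8121, 7815 and 8005 CPM in neoAC direct and at 4749, 4290, 4120 and 3921 CPM in AdAC direct. After culture it stood at 1027, 1310, 1264 and 1114 CPM in neoAC CellC and at 142, 168, 174 and 237 CPM in AdAC CellC. No cultured library reached a directly isolated one, and Sparcl1 fell by 2.73 ± 0.15 in neonatal and by 4.57 ± 0.16 in adult cells on the log2 scale (edgeR adjusted p = 2.05e-14 and 2.27e-18). Astrocyte markers fell beside it (6 of 8 in neonatal and 7 of 8 in adult cells), and the glutamate transporter Slc1a2 was 122-fold lower in adult culture. The fall of Sparcl1 was larger in adult cells, with an interaction of -1.83 ± 0.19 (log2, edgeR adjusted p = 7.65e-09). AGES stood at 4540, 4594, 4053 and 2950 CPM, overlapping AdAC direct, and NSC at 1143, 1021, 1267 and 1206 CPM, overlapping neoAC CellC. Sparcl1 was higher in AGES than in NSC by 1.80 ± 0.14, than in neoAC CellC by 1.78 ± 0.14 and than in AdAC CellC by 4.48 ± 0.16 (log2, edgeR adjusted p = 1.73e-11, 1.84e-11 and 1.16e-18).

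Sparc (chr11:55394500-55423183, minus strand), a matricellular protein that binds collagen, rose in culture instead. It stood at 806, 601, 592 and 670 CPM in AdAC direct and at 3944, 3659, 3696 and 3797 CPM in AdAC CellC. In neonatal cells it stood at 1610, 2025, 1537 and 1463 CPM when directly isolated and at 2789, 3158, 2922 and 3261 CPM in culture. The rise was 2.50 ± 0.16 in adult and 0.87 ± 0.15 in neonatal cells (log2, edgeR adjusted p = 3.64e-13 and 2.30e-05), a difference of 1.63 ± 0.22 (adjusted p = 3.77e-07). The highest neonatal directly isolated library, replicate 2, is the one with the high markers of endothelial cells, microglia, and pericytes and smooth muscle. Without this library the neonatal rise was 0.98 (edgeR adjusted p = 1.16e-05). AGES had the highest Sparc level of the 6 groups, with 8206, 7391, 11230 and 7990 CPM against 963, 1122, 590 and 860 CPM in NSC. This is a log2 fold change of 3.30 ± 0.17 over NSC, and AGES were also above AdAC CellC by 1.21 ± 0.16 and above neoAC CellC by 1.52 ± 0.16 (edgeR adjusted p = 3.53e-15, 1.29e-07 and 2.81e-09). All neoAC CellC libraries were below all AdAC CellC libraries, with a log2 fold change of -0.32 ± 0.15, which was not called in the fit of all groups (adjusted p = 0.0753) but was in an edgeR fit of these 2 groups alone (-0.22, adjusted p = 0.0201).

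The ratio of Sparcl1 to Sparc counts within a library does not depend on scaling. The mean log2 ratio was 2.69 ± 0.15 (SD, n = 4) in AdAC direct, 2.25 ± 0.19 in neoAC direct, 0.43 ± 0.52 in NSC, -1.11 ± 0.40 in AGES, -1.37 ± 0.16 in neoAC CellC and -4.41 ± 0.32 in AdAC CellC. Sparcl1 thus led in every directly isolated library, and Sparc led in every library of the 3 cultured astrocyte groups, also per length, where the group ratios were 8.30, 6.14, 1.73, 0.597, 0.50 and 0.0606 in the same order. The 4 AdAC CellC libraries had log2 ratios of -4.79, -4.44, -4.41 and -4.00, the 4 neoAC CellC libraries -1.44, -1.27, -1.21 and -1.55, and the 4 AGES libraries -0.85, -0.69, -1.47 and -1.44. With culture the log2 ratio fell by 7.10 in adult and by 3.62 in neonatal cells. In 6 of the 7 comparisons the groups did not overlap and an exact two-sided permutation test of 4 against 4 gave p = 0.0286, the smallest it can give (0.0333 adjusted over the 7). AGES and neoAC CellC overlapped and differed by 0.26 ± 0.22 (SE, log2, exact permutation p = 0.314, adjusted 0.314).

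**Figure D4:**
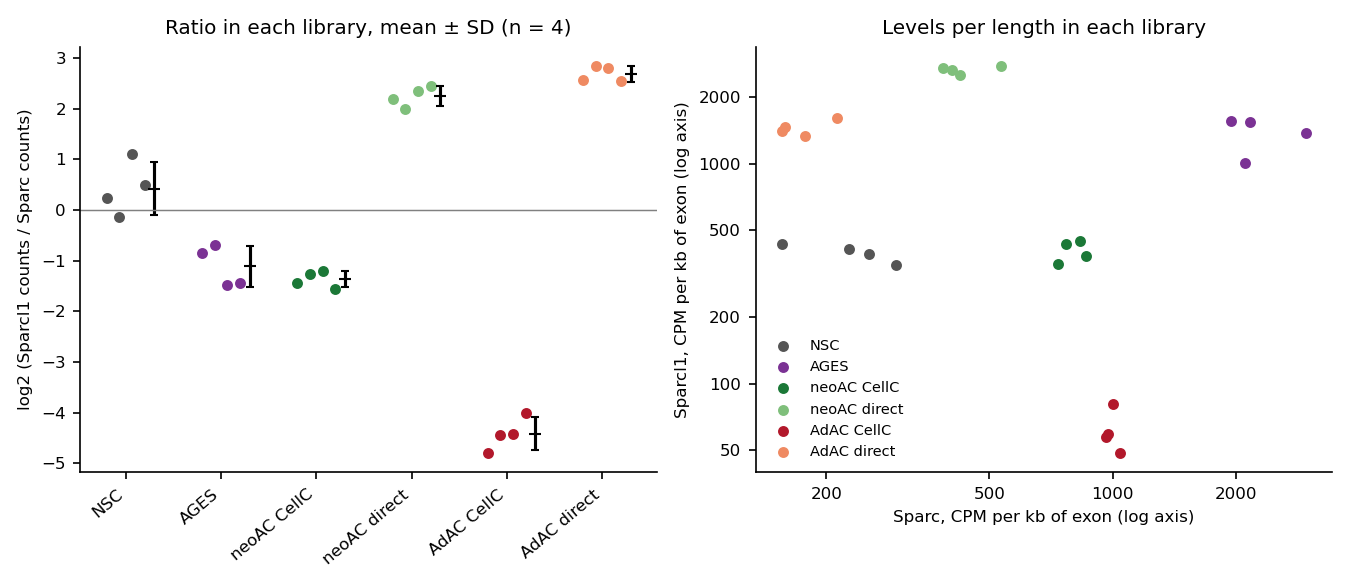
Left, log2 ratio of Sparcl1 to Sparc counts in each library, with the mean and SD of each group of 4 beside the points. Right, CPM per kb of exon of both genes in each library on log axes. All 8 directly isolated libraries lie above a log2 ratio of 2.00, and the 4 AdAC CellC libraries lie at -4.00 or below.

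Among the glypicans, Gpc4 (X:52053021-52165252, minus strand) rose in culture at both ages and Gpc5 fell. Per length the leading glypican changed from Gpc5 to Gpc4 in adult cells, while in neonatal cells Gpc4 had the highest mean share already before culture. Gpc4 stood at 27.0, 23.5, 24.6 and 24.2 CPM in AdAC direct and at 425, 436, 386 and 425 CPM in AdAC CellC. In neonatal cells it stood at 75.9, 74.1, 80.2 and 61.7 CPM in neoAC direct and at 487, 573, 560 and 634 CPM in neoAC CellC. Gpc4 was thus higher in cultured cells without overlap, by 4.07 ± 0.16 in adult and 2.95 ± 0.15 in neonatal cells (log2, edgeR adjusted p = 2.31e-17 and 1.03e-14), a difference of 1.13 ± 0.20 between the ages (adjusted p = 2.33e-05). AGES held 269, 274, 403 and 221 CPM of Gpc4 against 23.8, 15.6, 23.0 and 24.7 in NSC, a log2 fold change of 3.74 ± 0.16 (edgeR adjusted p = 9.29e-17). One AGES library reached into the range of AdAC CellC, and the log2 fold change of AGES was -0.52 ± 0.14 against AdAC CellC and -0.95 ± 0.14 against neoAC CellC (edgeR adjusted p = 0.00168 and 1.27e-06). In the first of these comparisons the median of all genes was -0.23.

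Gpc5, which is known as a glypican of astrocytes in the mature brain, stood at 115, 116, 113 and 110 CPM in AdAC direct and at 93.7, 128, 90.3 and 103 CPM in neoAC direct. These 2 groups overlapped, and their difference was not called (edgeR adjusted p = 0.499). In culture Gpc5 stood at 6.90, 9.46, 12.6 and 7.68 CPM in neoAC CellC and at 0.675, 0.175, 0.239 and 0.341 CPM in AdAC CellC. It fell by 3.50 ± 0.19 in neonatal and by 8.32 ± 0.27 in adult cells on the log2 scale (edgeR adjusted p = 5.58e-14 and 1.89e-18). The interaction was -4.82 ± 0.33 (log2, edgeR adjusted p = 4.28e-12). The AdAC CellC value rests on 22, 6, 9 and 11 counts, and NSC (2 to 12 counts) and AGES (3 to 8 counts) overlapped it. AGES against AdAC CellC was not called for Gpc5 (-1.15 ± 0.54, edgeR adjusted p = 0.0547), and without AdAC CellC replicate 2 it was (-1.37, adjusted p = 0.0233). A fit of these 2 groups alone removed Gpc5, which passed the filter through other groups. So few counts decide nothing about a difference between AGES and AdAC CellC. Exons of Gm20713 on the opposite strand cover 2.40% of the exon length of Gpc5.

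Gpc6 (chr14:116925315-117976544, plus strand), the closest paralog of Gpc4 among these 3, lies next to Gpc5 but followed another course. It was highest in AGES, with 211, 227, 285 and 192 CPM, with no overlap with another group. NSC, with 48.8, 54.1, 39.4 and 41.4 CPM, overlapped AdAC direct at the lower end. AGES were above NSC by 2.32 ± 0.13, above AdAC CellC by 1.58 ± 0.12 and above neoAC CellC by 1.10 ± 0.12 (log2, edgeR adjusted p = 1.68e-14, 1.32e-11 and 1.16e-08), each without overlap. In adult cells Gpc6 stood at 44.5, 48.0, 45.8 and 49.6 CPM when directly isolated and at 74.4, 82.7, 72.8 and 75.1 CPM in culture (0.70 ± 0.12 higher, log2, edgeR adjusted p = 1.35e-05). In neonatal cells the ranges of 103 to 138 CPM directly and 92.3 to 131 CPM in culture overlapped (-0.11 ± 0.12, adjusted p = 0.458), and with scaling by library size alone this difference was 0.12.

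Per length, the sum of the 3 glypicans was 231 ± 25.2 CPM per kb in neoAC CellC, 170 ± 8.81 in AdAC CellC, 146 ± 35.5 in AGES, 68.7 ± 2.63 in neoAC direct, 42.1 ± 0.617 in AdAC direct and 15.4 ± 1.04 in NSC (SD, n = 4). Gpc5 held 60.4% ± 0.825 of it in AdAC direct, where Gpc4 held 22.2% ± 1.15. In neoAC direct Gpc4 held 40.1% ± 4.63, Gpc5 33.8% ± 4.20 and Gpc6 26.2% ± 4.04, and the libraries of Gpc4 and Gpc5 overlapped, as did those of Gpc5 and Gpc6. In the other 4 groups Gpc5 held at most 0.893% on average. Gpc4 held 93.0% ± 0.254 in AdAC CellC, 91.9% ± 0.400 in neoAC CellC and 75.3% ± 1.62 in AGES. Gpc6 had its highest share in NSC (46.6% ± 8.47), where it overlapped Gpc4 (53.0% ± 8.25).

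Chrdl1 (X:143285674-143394262, minus strand) was highest in neoAC direct, with 106, 105, 130 and 160 CPM, followed by AdAC direct, with 63.6, 77.2, 72.0 and 74.7 CPM. It stood at 52.8, 83.2, 64.6 and 76.0 CPM in neoAC CellC, overlapping AdAC direct, and at 27.5, 34.1, 31.8 and 33.7 CPM in AdAC CellC. With culture Chrdl1 fell by 1.18 ± 0.15 in adult and by 0.86 ± 0.14 in neonatal cells (log2, edgeR adjusted p = 7.11e-08 and 1.07e-05). The difference between these falls was not called (-0.32 ± 0.20, adjusted p = 0.165), though it was with scaling by library size alone (-0.47, edgeR adjusted p = 0.0482). AGES (16.1, 13.8, 18.8 and 12.1 CPM) and NSC (21.8, 16.4, 19.5 and 18.3 CPM) had the lowest levels and overlapped. Their difference of -0.32 ± 0.15 had an edgeR adjusted p of 0.0642 and one of 0.0162 without AGES replicate 3 (-0.44). The log2 fold change of AGES was -1.07 ± 0.15 against AdAC CellC and -2.19 ± 0.15 against neoAC CellC (edgeR adjusted p = 5.81e-07 and 1.78e-12).

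Counted together, 6 of the 10 genes were higher and 4 lower in AdAC CellC than in AdAC direct (edgeR adjusted p under 0.05), where 38.8% of the 19691 genes tested were higher and 39.2% lower. The higher ones were Thbs1, Thbs2, Thbs3, Sparc, Gpc4 and Gpc6, and the lower ones Thbs4, Sparcl1, Gpc5 and Chrdl1. In neoAC CellC against neoAC direct 4 were higher and 4 lower (34.4% and 31.3% of all genes), and Thbs3 and Gpc6 were not called. The culture comparisons thus called most of the 10 genes in a setting where most genes changed. Over the 10 genes the median log2 fold change was 0.58 in adult and -0.13 in neonatal cells, beside 0.00 and 0.04 over all genes. The interaction of culture and age was called for 8 of the 10, and for 68.6% of all genes. Thbs4 (0.25 ± 0.38) and Chrdl1 were the 2 not called. The adult change was the larger one in size for each of the 8 called, of which Thbs3 (0.46 against -0.15) and Gpc6 (0.70 against -0.11) had neonatal values of the other sign that were not called.

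Between the ages, 7 of the 10 genes were higher in neoAC direct than in AdAC direct and 0 were lower (35.0% of all genes were higher and 36.4% lower). Thbs1 differed most, by 3.56 ± 0.19 on the log2 scale, followed by Gpc4 (1.56 ± 0.15), Sparc (1.31 ± 0.16), Gpc6 (1.29 ± 0.12), Sparcl1 (0.88 ± 0.14), Chrdl1 (0.80 ± 0.14) and Thbs3 (0.78 ± 0.11), and in each of them the libraries did not overlap (edgeR adjusted p between 2.88e-14 for Thbs1 and 2.19e-05 for Chrdl1). The values of Thbs2 (-0.17 ± 0.19), Thbs4 (-0.08 ± 0.24) and Gpc5 (-0.13 ± 0.17) were not called, and their libraries overlapped. When a call also needed a log2 fold change beyond 1 in size, 4 were left, Thbs1, Gpc4, Sparc and Gpc6 (16.5% of all genes were higher by this rule and 22.6% lower). The oligodendrocyte markers summed to 9799 to 10517 CPM in AdAC direct against 16.1 to 20.7 CPM in neoAC direct (5 of 5 lower in neoAC direct). Fibroblast and meninges markers (6 of 6) and neural stem cell markers (6 of 6) were higher in neoAC direct, and ependymal markers lower (4 of 4). Of the astrocyte markers, Aldh1l1, Slc1a3, Aqp4 and Gfap were higher in neoAC direct and S100b lower. The endothelial markers Cldn5, Pecam1, Kdr and Tek were higher and Ly6c1 lower, and the neuron markers Rbfox3, Snap25, Syt1 and Stmn2 were higher. The rest of these last lists were not called. The part of these in the differences was not tested. In culture, 5 genes were higher in neoAC CellC than in AdAC CellC (28.5% of all genes) and 2 lower (35.2%). Higher were Gpc5 (4.69 ± 0.28), Sparcl1 (2.71 ± 0.15), Chrdl1 (1.12 ± 0.15), Gpc6 (0.49 ± 0.12) and Gpc4 (0.43 ± 0.14), and lower were Thbs1 (-1.90 ± 0.17) and Thbs2 (-1.36 ± 0.19, all log2, edgeR adjusted p at most 0.00903). The astrocyte markers (8 of 8) and ependymal markers (4 of 4) were also higher in neoAC CellC, and the oligodendrocyte markers (5 of 5) and 5 of 6 markers of pericytes and smooth muscle lower. Their part in it was not tested.

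Of AGES against NSC, 6 genes were higher and 0 lower (31.7% and 34.0% of all genes). The higher ones were Gpc4, Thbs2, Sparc, Thbs1, Gpc6 and Sparcl1, all without overlap, and over the 10 genes the median log2 fold change was 2.06 beside 0.00 over all genes (2.32 without Thbs4, which is at the floor in both groups). Astrocyte markers (5 of 8), ependymal markers (2 of 4) and those of pericytes and smooth muscle (2 of 6) were also higher in AGES than in NSC, with 0 lower. Of the neural stem cell markers 4 were higher and 2 lower. Compared with AdAC CellC, AGES had 3 of the genes higher (Sparcl1, Gpc6 and Sparc) and 5 lower (Thbs1, Thbs4, Thbs2, Chrdl1 and Gpc4), against 31.0% and 45.2% of all genes. Compared with neoAC CellC the same 3 were higher and 6 lower, with Gpc5 added to the 5 (34.1% and 40.5% of all genes). These 2 comparisons share the AGES libraries. Oligodendrocyte markers summed to 7.72 to 11.9 CPM in AGES, against 2769 to 7158 in AdAC CellC (5 of 5 lower in AGES). Fibroblast and meninges markers (6 of 6), those of pericytes and smooth muscle (6 of 6) and ependymal markers (4 of 4) were also lower in AGES than in AdAC CellC, as were the endothelial (6 of 6) and microglia markers (6 of 6). Of the 8 astrocyte markers 6 were higher in AGES than in AdAC CellC and 2 lower, and against neoAC CellC 3 were higher and 3 lower. Against neoAC CellC, the fibroblast and meninges markers (6 of 6), the ependymal (4 of 4) and oligodendrocyte precursor markers (4 of 4), 5 of 6 markers of pericytes and smooth muscle, 4 of 5 of oligodendrocytes, 4 of 6 of endothelial cells and 4 of 6 of microglia were lower in AGES. The part of these markers in the values of the 10 genes was not tested.

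**Figure D5:**
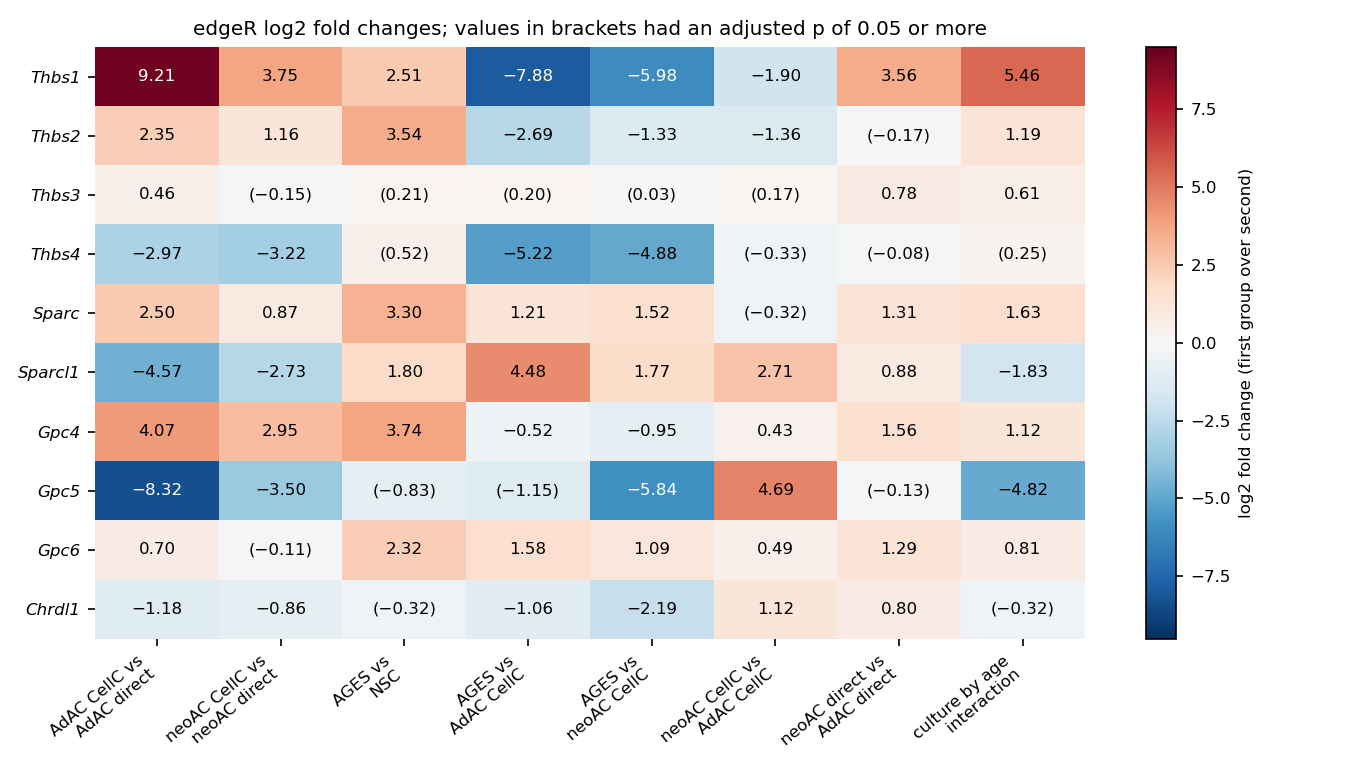
edgeR log2 fold changes of the 10 genes in the 7 comparisons and in the interaction of culture and age, with colour for direction and size and brackets around values with an adjusted p of 0.05 or more. Culture of adult cells gives the ends of the scale, 9.21 for Thbs1 and -8.32 for Gpc5.

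Known receptors and partners of these proteins were counted in the same libraries. Cacna2d1, the thrombospondin receptor, stood at 32.7 ± 1.93 CPM (SD, n = 4) in AdAC CellC and 15.0 ± 2.39 in AdAC direct, and it was higher in culture by 1.12 ± 0.14 in adult cells while it fell by 1.02 ± 0.14 in neonatal ones (log2, both called with edgeR). Nlgn1 fell with culture at both ages, by 1.80 ± 0.14 in adult and 1.43 ± 0.13 in neonatal cells. Lrp1, an endocytic receptor that binds thrombospondin, was not called in adult cells (0.12 ± 0.13) and fell by 0.96 ± 0.13 in neonatal cells. Ptprs was higher by 0.45 ± 0.13 in cultured adult cells and fell by 0.40 ± 0.12 in cultured neonatal cells, and was highest in neoAC direct with 837 ± 159 CPM. Gpr158 fell by 2.01 ± 0.22 and 2.45 ± 0.20 with culture, and at 0.512 ± 0.188 CPM it was lowest in AGES (-3.27 ± 0.24 against NSC). Between AGES and NSC, Nlgn1, Lrp1 and Ptprs were higher by 0.60 ± 0.13, 1.17 ± 0.13 and 0.28 ± 0.12 (log2, all called with edgeR), while Cacna2d1 was not called (0.10 ± 0.14).

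The counts of the lists that follow stand beside the shares of all 19691 genes that were called in each comparison. With culture 38.8% were higher and 39.2% lower in adult cells, and 34.4% and 31.3% in neonatal cells. The shares were 31.7% and 34.0% between AGES and NSC, 31.0% and 45.2% between AGES and AdAC CellC, and 34.1% and 40.5% between AGES and neoAC CellC. For neoAC direct against AdAC direct they were 35.0% and 36.4%, and for neoAC CellC against AdAC CellC 28.5% and 35.2%. These shares depend on the scaling. By library size alone they were 43.8% and 22.7% in neonatal culture, where the median of all genes moved from 0.04 to 0.27, and 22.9% and 49.9% between AGES and neoAC CellC, where it moved from -0.07 to -0.37 (log2). In AGES against AdAC CellC the median moved from -0.23 to -0.45, with 24.5% higher and 52.2% lower. With DESeq2's size factors more genes were higher than lower in AGES against NSC (34.0% and 31.5%) and in neoAC CellC against AdAC CellC (32.4% and 29.9%). A count near these shares is no result about a list.

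Of the list of 23 receptors and binding partners, 9 were higher and 13 lower in AdAC CellC than in AdAC direct, and 1 was higher and 13 lower in neoAC CellC than in neoAC direct (38.8% and 39.2%, and 34.4% and 31.3% of all genes). The median log2 fold changes were -0.55 and -0.64, beside 0.00 and 0.04 over all genes. The integrin subunit Itgb1 rose most in adult cells (2.79 ± 0.14) and the AMPA receptor subunit Gria2 fell most (-4.36 ± 0.29). Between AGES and NSC 11 were higher and 5 lower. The pentraxin Nptx1, which the Gpc4 pathway releases from axons, fell from 2358 CPM in NSC to 21.2 CPM in AGES (-6.79 ± 0.45, edgeR adjusted p = 1.08e-11). Against AdAC CellC, 12 were higher and 11 lower in AGES, and against neoAC CellC 7 and 12. Of the 23, 14 were higher and 5 lower in neoAC direct than in AdAC direct, and 11 were higher and 7 lower in neoAC CellC than in AdAC CellC.

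Of 12 related family members, which are other glypicans, SPARC-like matrix proteins, chordins and the thrombospondin Comp, 3 were higher and 8 lower in cultured than in directly isolated adult cells, and 3 were higher and 7 lower in neonatal cells, where 34.4% and 31.3% of all genes were (38.8% and 39.2% in adult cells). The SPARC-related gene Fstl1 rose most at both ages, from 52.7 to 754 CPM in adult (3.84 ± 0.15) and from 127 to 740 CPM in neonatal cells (2.55 ± 0.14). Between AGES and NSC 7 were higher and 2 lower. Smoc1, another secreted relative of SPARC, stood at 241 CPM in AGES against 5.25 CPM in AdAC CellC and 33.8 CPM in neoAC CellC, and was the called gene of this list with the largest difference above both. Against AdAC CellC 3 were higher and 8 lower in AGES, and against neoAC CellC 3 and 7. In neoAC direct 6 were higher and 5 lower than in AdAC direct, where the testican Spock3 stood at 0.259 CPM against 114 CPM (-8.76 ± 0.20), and in neoAC CellC 3 were higher and 5 lower than in AdAC CellC.

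Since Chrdl1 binds BMPs, 11 BMP ligands and secreted antagonists were listed beside it. Of these, 6 were higher and 2 lower in AdAC CellC than in AdAC direct (38.8% and 39.2% of all genes). The antagonist Grem1 led them with 40.4 CPM in AdAC CellC against 7 counts in all 4 AdAC direct libraries. The ratio was 749, with an exact 95% Poisson interval of 363 to 1864 for counting error alone. In neonatal cells 4 were higher and 6 lower (34.4% and 31.3% of all genes), with the ligand Bmp6 first (14.4 to 299 CPM, 4.38 ± 0.16). Between AGES and NSC 3 were higher and 4 lower. The antagonist Nog, with 6 counts in all 4 NSC libraries, rose to 29.95 CPM in AGES (edgeR adjusted p = 3.35e-16). Its ratio was 634, with an exact 95% Poisson interval of 291 to 1730 for counting error alone. The ligand Bmp7 fell from 74.8 to 3.798 CPM (-4.30 ± 0.22). Against AdAC CellC, 3 were higher and 8 lower in AGES, and against neoAC CellC 2 and 8, with a median log2 fold change of -5.89 and -3.30 beside -0.23 and -0.07 over all genes (-5.89 and -2.94 with the 4 genes at or under the floor in AGES set to it). Bmp4 had 0 counts in AGES, which received the protein in the medium, and 10.3 CPM in AdAC CellC. In neoAC direct 6 were higher and 1 lower than in AdAC direct, and in neoAC CellC 5 were higher and 5 lower than in AdAC CellC.

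Glypicans carry heparan sulfate, and 25 genes were listed that build, trim or cleave these chains or have been reported to release glypicans. Of these, 13 were higher and 9 lower in AdAC CellC than in AdAC direct, and 11 were higher and 14 lower in neoAC CellC than in neoAC direct (38.8% and 39.2%, and 34.4% and 31.3% of all genes). The sulfatase Sulf1 rose from 11.5 to 263 CPM in adult cells (4.52 ± 0.13). Notum, for which a release of glypicans has been reported, fell from 13.6 to 0.864 CPM in neonatal cells (-3.97 ± 0.22). Between AGES and NSC 5 were higher and 12 lower. Xylt1, which starts the chains, fell from 419 to 23.6 CPM (-4.15 ± 0.14, edgeR adjusted p = 7.70e-19). Against AdAC CellC, AGES had 7 of these higher and 15 lower, and against neoAC CellC 7 and 9. In neoAC direct 16 were higher and 4 lower than in AdAC direct, and in neoAC CellC 5 were higher and 12 lower than in AdAC CellC.

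A list of 18 other regulators of synapses that astrocytes release had 11 higher and 7 lower in AdAC CellC than in AdAC direct, and 5 higher and 13 lower in neoAC CellC than in neoAC direct (against 38.8% and 39.2%, and 34.4% and 31.3% of all genes). Tnc, a matrix glycoprotein, rose from 12.04 to 1296 CPM in adult cells (6.75 ± 0.30), and Lgi1, a secreted ligand of ADAM22, fell from 79.1 to 1.23 CPM (-6.00 ± 0.29). In neonatal cells the proteoglycan Cspg5 fell from 1828 to 123 CPM (-3.89 ± 0.16). Between AGES and NSC 7 were higher and 5 lower, with Apoe, the lipid carrier that supplies cholesterol for synapses, first (67.4 to 1023 CPM, 3.92 ± 0.22). Against AdAC CellC, AGES had 8 of them higher and 9 lower, and against neoAC CellC 7 and 10. In neoAC direct 15 were higher and 2 lower than in AdAC direct, and in neoAC CellC 6 were higher and 9 lower than in AdAC CellC.

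Over the 24 libraries, the genes whose log2 CPM were most like each member were listed among 12569 tested genes with a group mean of at least 10 CPM, by Pearson correlation and as a description of these groups. For Thbs1 they were Col18a1 (0.97), Ccn2 (0.97) and Lox (0.96), and for Thbs2 Pak3, Efna5 and Ass1 (0.97 to 0.98). Those of Thbs4 were Phactr3 (0.99), Chst1 and Dio2 (both 0.98), and those of Thbs3 (Trim46, Agfg2 and Rab5c) reached 0.88 to 0.89 only. Sparcl1 was followed most closely by Slc15a2 (0.99), Adcyap1r1 and Agt (both 0.97), and Sparc by Wwc2 (0.97), Fn1 and Fat1 (both 0.96). Gpc4 had Palld (0.98), Gm42928 (0.98) and Ak5 (0.97), Gpc5 had Cldn10 (0.99), Slc6a11 and Sypl2 (both 0.98), and Gpc6 had Muc15, Id1 and Pea15a (0.97 to 0.98). The genes most like Chrdl1 were Ttpa, Kcnd2 and Mmd2 (all 0.97). Among the members themselves the highest correlations were those of Gpc5 with Chrdl1 (0.91), Thbs4 with Chrdl1 (0.89) and Thbs4 with Gpc5, and the lowest was that of Thbs1 with Sparcl1 (-0.62).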

How the data were processed

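The authors made stranded polyA libraries, aligned paired reads to GRCm38 with STAR 2.7.3a (up to 20 alignments per read) after bcl2fastq 2.20, and counted reads on exons of Gencode vM12 with featureCounts. The deposited values are raw counts per gene. Whether counting used the strand or reads with several alignments is not given in the sources used here. Symbols, positions and exon lengths came from Gencode vM21 (49412 of 49671 genes matched by identifier). Counts were fitted in R 4.3.3 with edgeR 4.0.16 (filterByExpr, TMM, robust quasi-likelihood, 1 fit of 6 groups), two-sided, with Benjamini-Hochberg adjustment over 19691 genes and a threshold of 0.05. An SE is the absolute log2 fold change over the root of F. CPM are TMM-scaled, and per kb they are divided by the union exon length. Log2 ratios of Sparcl1 to Sparc used a pseudocount of 0.5, log2 CPM for correlations a prior count of 2. A check of the test on simulated counts is used for no result here. Alternatives were other scalings (DESeq2's size factors, library size), no filter or at least 10 counts in every library, DESeq2 1.42.0, a fold threshold, fits of the compared groups with and without a replicate block, and leaving out each library. Figures were drawn with matplotlib 3.10.9.

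Groups came from the sample titles. Libraries are separate isolations or cultures. Floors of 3 counts cover counting error alone. The 10 members and the gene lists were chosen with earlier results of these data known. All members are named in every comparison. Of each list, counts are given with some of the genes that were highest or lowest by log2 fold change among called genes whose higher group mean reached 1 CPM, and Cacna2d1, Nlgn1, Lrp1, Ptprs and Gpr158 are named whatever their values. The promoter letters were chosen after the values were seen. Comparisons that share a group are not independent. A few genes of the lists are not reported here and were left out of their counts and sums.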

Additional observations from a re-analysis of the deposited data

Results flagged for a closer look

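The change with culture differed between adult and neonatal astrocytes in 8 of the 10 genes by the interaction term of the edgeR fit, given as the adult minus the neonatal log2 change. It was larger in the direction of higher levels for Thbs1 (5.46), Sparc (1.63), Thbs2 (1.19), Gpc4 (1.13), Gpc6 (0.81) and Thbs3 (0.61), and in the direction of lower levels for Gpc5 (-4.82) and Sparcl1 (-1.83). Of all genes 68.6% had a called interaction, and adult and neonatal cells also differed in dissection, in dissociation and in oligodendrocyte markers.

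In 66 groups of 4 values tested with Dixon's ratio, 3 single libraries stood apart from the rest of their group, where chance alone flags about 1 in 20 groups. They were neoAC CellC replicate 2 for Thbs3 (35.7 CPM, against 39.4 to 39.6 in the others), AdAC CellC replicate 1 for Thbs3 (28.4 CPM, against 35.7 to 36.9) and NSC replicate 1 for Thbs4 (0.0652 CPM, which is 2 counts, against 0 in the others). The last of these says nothing, since with 3 libraries at 0 any count gives the largest possible ratio, and it is under the floor of 3 counts.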

How the results depend on the processing

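Every member called in a comparison kept its direction and its call under each other scaling, filter, tool and left-out library that gave a value, and only a fold threshold removed calls. With an absolute log2 fold change over 1, 4 members were called in neoAC direct against AdAC direct in place of 7 (16.5% of all genes higher and 22.6% lower, in place of 35.0% and 36.4%). It removed 13 calls in all. The others were Thbs3 and Gpc6 in adult culture and in the interaction, and Sparc and Chrdl1 in neonatal culture. Gpc4 was lost in AGES against AdAC CellC and against neoAC CellC, and Gpc4 and Gpc6 in neoAC CellC against AdAC CellC. With 1 library left out, always 7 members were called there, 8 to 9 in neoAC CellC against neoAC direct, 6 to 8 in AGES against NSC, 8 to 9 in AGES against AdAC CellC and 8 to 9 in the interaction. All reversals were of values not called. Thbs3 in AGES against neoAC CellC (0.03) was -0.031 with DESeq2's size factors, -0.271 by library size (edgeR adjusted p = 0.0234), -0.168 with at least 10 counts, -0.032 with DESeq2, -0.009 in the 2 groups alone, and between -0.013 and 0.082 with 1 library left out. By library size Thbs3 was -0.022 in AGES against AdAC CellC and 0.079 in neoAC CellC against neoAC direct, where Gpc6 was 0.121, and 0.000 with at least 10 counts. Thbs4 was -0.417 to 2.899 in AGES against NSC, -0.009 to 0.410 in the interaction and -0.169 to 0.026 in neoAC direct against AdAC direct with 1 library left out. The causes were not tested. The filter of 10 counts removed Thbs4 and Gpc5, and fits of the compared groups alone removed both in AGES against NSC and Gpc5 in AGES against AdAC CellC, so that these gave no value. Replicate numbers did not pair the libraries: same-numbered deviations correlated between -0.095 and 0.11. In no comparison did more than 4 of the 8 libraries correlate best with their own number. A replicate block called 10, 8, 6, 9, 9, 9, 7 and 8 members in the 7 comparisons and the interaction, in the order of the figure of fold changes, where it called 83.0%, 67.6%, 73.7%, 79.3%, 74.4%, 69.3%, 78.4% and 72.3% of all genes. These fits held the compared groups alone, so that they changed 2 choices at once. Calls added to those of the fit of all groups were Thbs3 in AGES against AdAC CellC (0.303) and Thbs3 and Sparc in neoAC CellC against AdAC CellC (0.266 and -0.224). Thbs3 in AGES against neoAC CellC was -0.014. The same groups without a block gained 4 calls, Sparc among them, beside 3 with it, so that these moves are not put down to the block. Pairing left the ratio of Sparcl1 to Sparc as it was (-7.10 in adult culture), although 4 pairs cannot give a sign-flip p under 0.125. At these depths Thbs4 in NSC and AGES is under the floor.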
